A study of Rattus norvegicus with 4 samples.

Results

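The genes described here carry arginine into macrophages and along its main routes there, into nitric oxide, ornithine and polyamines. They were chosen by symbol, as every non-control probe whose accession maps to one of 10 rat genes, Slc7a1, Slc7a2, Ass1, Asl, Nos2, Arg1, Arg2, Odc1, Srm and Sat1. Of these, 9 had a probe, 15 probes in all, among 16579 genes with a symbol and a value. For Slc7a1 no probe was matched by accession, so it has no value here. RNA came from NR8383, a rat macrophage line first obtained by washing out the lung, after 20 passages. It was seeded for 48 h and exposed for 4 h to titanium dioxide (TiO2, NRCWE001) at a dose given as 3 cm2/cm2. The 4 cultures, described as biological replicates, form 1 group (replicates 1 to 4), and each was hybridised to its own one-colour array. Unexposed cells were not analysed here. No value below is therefore a response to the particles, and a culture cannot be told apart from its array.

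As background, arginine enters cells through cationic amino acid carriers. Nitric oxide synthase turns it into nitric oxide and citrulline, and citrulline can be rebuilt into arginine by argininosuccinate synthase and lyase. Arginase instead splits it into urea and ornithine, which ornithine decarboxylase turns into putrescine, the start of the polyamines spermidine and spermine. In macrophages of mice the inducible synthase Nos2 is known from activation by microbial products and interferon, and Arg1 from activation by type 2 cytokines.

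The sequences before the annotated starts of these genes are shown for the polyamine genes, whose transcripts were found on every array, and for the paired recycling enzymes Asl and Ass1, of which 1 was found and the other was not. RefSeq's promoter table for build GRCr8 holds 6 of the 10 genes. Arg1, Arg2, Nos2 and Slc7a2 have no entry in it, and the window of Slc7a1, which has no array value, is not shown. Each window is the 250 bases before the start, on the plus strand, 5′ to 3′, and capitals mark the letters of the TATA box (TATAAA), the canonical E-box (CACGTG) and the CCAAT box (CCAAT) on either strand. The windows are chr6:46058415-46058664 for Odc1, chr5:164308752-164309001 for Srm, chrX:44007839-44008088 for Sat1, chr12:32295658-32295907 for Asl and chr3:35149480-35149729 for Ass1, of which those of Odc1, Asl and Ass1 overlap the gene's own annotated span.
Odc1: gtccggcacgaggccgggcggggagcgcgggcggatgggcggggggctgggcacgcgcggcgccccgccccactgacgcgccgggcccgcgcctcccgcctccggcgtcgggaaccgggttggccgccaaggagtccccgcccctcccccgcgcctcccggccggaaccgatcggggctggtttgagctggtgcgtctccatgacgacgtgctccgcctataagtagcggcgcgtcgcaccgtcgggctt
Srm: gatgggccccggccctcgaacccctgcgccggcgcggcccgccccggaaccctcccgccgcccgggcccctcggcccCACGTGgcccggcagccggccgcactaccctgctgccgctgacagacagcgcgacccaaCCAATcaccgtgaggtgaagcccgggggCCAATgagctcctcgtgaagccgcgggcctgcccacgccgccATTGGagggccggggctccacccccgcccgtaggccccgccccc
Sat1: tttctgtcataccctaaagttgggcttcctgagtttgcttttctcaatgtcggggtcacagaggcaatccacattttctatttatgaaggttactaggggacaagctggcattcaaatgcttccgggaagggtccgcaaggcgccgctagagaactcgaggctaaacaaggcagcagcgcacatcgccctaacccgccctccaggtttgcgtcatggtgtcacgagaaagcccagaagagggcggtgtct
Asl: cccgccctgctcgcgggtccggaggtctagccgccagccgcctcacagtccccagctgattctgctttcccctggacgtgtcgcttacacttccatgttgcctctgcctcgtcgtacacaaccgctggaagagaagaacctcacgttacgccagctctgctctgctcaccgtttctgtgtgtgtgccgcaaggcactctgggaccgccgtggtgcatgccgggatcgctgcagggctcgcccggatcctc
Ass1: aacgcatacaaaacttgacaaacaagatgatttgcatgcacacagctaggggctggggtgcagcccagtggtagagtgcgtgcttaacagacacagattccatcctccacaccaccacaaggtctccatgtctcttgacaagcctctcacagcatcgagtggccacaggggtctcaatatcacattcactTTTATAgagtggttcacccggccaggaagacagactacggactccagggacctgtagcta

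The Srm window held 1 E-box, a sequence found in 5.59% of 33469 such windows, and 3 CCAAT boxes, a sequence found in 34.0% of them. No marked motif overlapped another. The Ass1 window held 1 TATA box, read on the minus strand, which 12.9% of windows hold. None of these exact letters stood in the windows of Odc1, Sat1 and Asl. That of Odc1 holds tataag, which differs from the searched TATA box letters in the last base and was not marked. Base composition separated them further. G and C made up 78.0% of the Odc1 window and 78.4% of that of Srm, 64.0% for Asl, 52.8% for Sat1 and 51.2% for Ass1, where the median of all windows was 51.2%. The Odc1 window had 41 CpG dinucleotides, Srm 30, Asl 21, Sat1 12 and Ass1 5, against a median of 5. These are descriptions of the letters and say nothing of the factors that bind there.

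The arrays had similar local backgrounds but differed in overall signal, and RNA quality was not assessed here. Probes detected numbered from 15313 on replicate 2 to 16708 on replicate 3. The 75th percentile of the processed signal, to which each array was scaled, ran from 347 to 554 intensity units over local backgrounds of 36 to 41, and no spot was saturated. Cell type markers were read beside all genes, of which 45.7% were well above background on all 4 arrays and 48.2% on none. Of 10 macrophage markers 8 were well above background on all 4 arrays, the exceptions being Marco and Adgre1. None of 6 markers of lung epithelium, 3 of lymphocytes and 2 of granulocytes and mast cells was, although Sftpa1 was on 1 array and Cd3d on 3. Of 5 markers of fibroblasts and endothelium only Cdh5 was. By a more lenient flag, signal positive and significant over background, Adgre1, Sftpc and Cd3d were present on all 4 arrays, as were 55.3% of all genes. Over so few genes these counts say little of other cell types. Among genes of classical activation Tnf, Il1b and Cxcl10 were present on all arrays while Il6, Il12b, Ptgs2 and Cd86 were on none. Of 5 genes of alternative activation Mrc1 alone was present, and Retnla, Cd163, Ccl17 and Il10 were on none.

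Transcripts of the arginase and polyamine steps were found in the exposed cells, while those of the inducible nitric oxide synthase, of the second arginase and of argininosuccinate synthase were not well above background. Arg1, Asl, Odc1, Srm and Sat1 were detected on all 4 arrays, which is 5 of 9 measured genes where 45.7% of all genes were. Over so few genes that count lies close to the background. Slc7a2 was detected on 1 array, and Ass1, Nos2 and Arg2 on none, where 48.2% of all genes were on none. Detection here is the scanner software's flag for signal well above background, set on over 0.5 of a probe's spots. In RNA of whole cultures, fewer cells with a transcript and less of it per cell cannot be told apart.

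**Figure D1:**
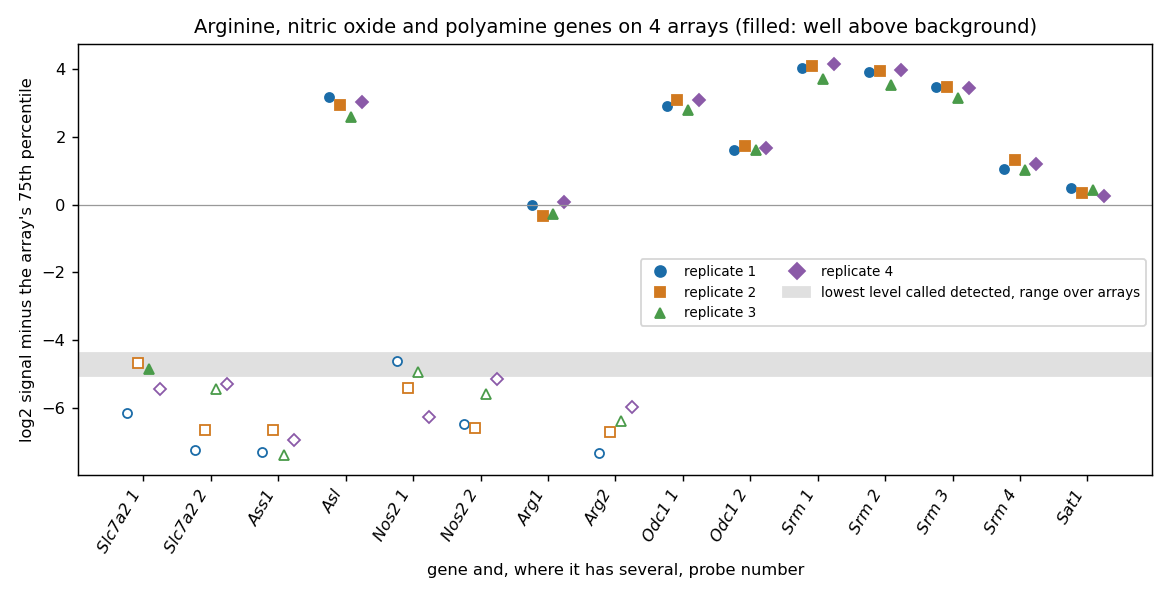
Level of each of the 15 probes on each array, as log2 signal minus the array's 75th percentile, in the order of the arginine routes. Filled symbols are well above background. The probes of Asl, Arg1, Odc1, Srm and Sat1 are filled on all 4 arrays, and those of the other genes lie near or below the grey band of the lowest levels called detected. Heights of different probes are not comparable.

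Levels below are log2 values relative to the 75th percentile of the array, each for 1 probe. They can be compared between arrays but not between probes, whose brightness also depends on their sequence.

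At the entry of arginine, the inducible carrier gene Slc7a2 sat at the edge of detection. Its brighter probe gave 6.04, 13.4, 19.2 and 9.46 intensity units on replicates 1 to 4 and was called well above background on replicate 3 alone. The other probe gave 2.83, 3.44, 12.6 and 10.5 units and was never called. On either probe replicate 1 was the lowest. The lowest signal that any probe called detected had on these arrays was 13.5, 16.6, 16.6 and 16.3 units.

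The recycling pair was split. Ass1, which joins citrulline and aspartate and is known as the limiting step of arginine recycling, gave 2.74, 3.39, 3.28 and 3.31 units, well under those lowest detected signals on every array. It was also the only measured member that failed the more lenient flag (signal positive and significant over background) on all 4 arrays. Its value rests on 1 probe with 1 spot. Asl, the lyase that releases arginine and fumarate in the next step, lay at 3.16, 2.94, 2.57 and 3.02 on replicates 1 to 4 (2.92 ± 0.25, SD, n = 4). Replicate 3 was lowest and replicate 1 highest, a range of 1.51-fold.

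Nos2, which makes nitric oxide in activated macrophages, has 2 probes, and neither was well above background on any array. The brighter gave 17.7, 8.04, 18.1 and 5.36 units on replicates 1 to 4, and the other 4.86, 3.55, 11.5 and 11.6. They did not order the arrays alike, since replicate 4 was lowest on the first and highest on the second. By the lenient flag the brighter Nos2 probe counted as present on all 4 arrays, as did the brighter one of Slc7a2. That made 7 of 9 members present, where 55.3% of all genes were by that flag. On replicates 1 and 3 the brighter probe was not called, though it lay above the lowest detected signals there (13.5 and 16.6 units). The flag is therefore not a plain cut on signal. The Nos2 result is a signal that the stricter flag did not call, not a proof of absence.

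**Figure D2:**
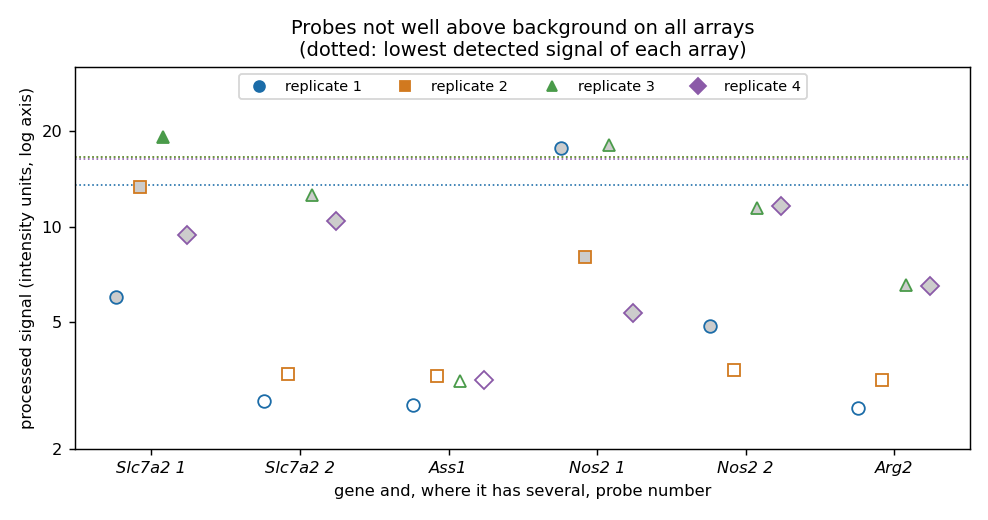
Processed signal in intensity units, on a log axis, of the 6 probes not well above background on all arrays. Coloured fill marks well above background, grey fill the lenient flag only, and white neither, with dotted lines at the lowest detected signal of each array. A single point is coloured (Slc7a2, replicate 3), grey points stand for Nos2, Slc7a2 and Arg2, and Ass1 is white throughout.

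The arginases differed in the same way. Arg1, the cytosolic enzyme, was well above background throughout, with 426, 274, 457 and 434 units. Scaled, it lay at -0.02, -0.34, -0.28 and 0.07 on replicates 1 to 4 (-0.14 ± 0.20, SD, n = 4). Replicates 2 and 3 were the lower pair and replicates 1 and 4 the higher, over a range of 1.33-fold. Arg2, the mitochondrial enzyme, gave 2.69, 3.30, 6.54 and 6.53 units and was not well above background on any array, and the lenient flag was set on replicates 3 and 4. Each arginase was measured by 1 probe.

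Odc1, the decarboxylase that commits ornithine to putrescine, was measured by 2 probes, both detected on all 4 arrays. The brighter lay at 2.91, 3.10, 2.78 and 3.08 (2.97 ± 0.15, SD, n = 4) and the other at 1.62, 1.72, 1.61 and 1.68 (1.66 ± 0.05, SD, n = 4). On either probe replicate 2 was highest and replicate 3 lowest, over a range of 1.24-fold on the brighter and 1.08-fold on the other.

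Srm, the synthase that makes spermidine from putrescine, had 4 probes, all detected on all 4 arrays. The brightest lay at 4.04, 4.10, 3.72 and 4.17 on replicates 1 to 4 (4.01 ± 0.20, SD, n = 4). The second lay at 3.92, 3.96, 3.53 and 3.98, and the third at 3.46, 3.48, 3.15 and 3.45. All 3 placed replicate 3 below the others and the others close together. The fourth lay at 1.06, 1.30, 1.03 and 1.19, where replicate 3 was again lowest but hardly below replicate 1. Replicate 3 decided the spread of the brightest probe, whose SD was 0.20 on all arrays and 0.06 without it. Spots of 1 probe on the same array cover spot noise only, not labelling, hybridisation or culture. The pair of spots of the second probe differed by 0.33 on replicate 1 and by 0.01 to 0.04 on the other arrays, and those of the brightest probe by 0.16 on replicate 1 and by 0.003 to 0.04 elsewhere.

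Sat1, the acetyltransferase that marks spermidine and spermine for breakdown and export, ran differently. It lay at 0.48, 0.34, 0.42 and 0.24 (0.37 ± 0.10, SD, n = 4), with replicate 1 highest, replicate 4 lowest and a range of 1.18-fold.

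Among the 9 probes detected on all 4 arrays, 7 were lowest on replicate 3, the exceptions being those of Arg1 and Sat1. These 7 were the 4 probes of Srm, the 2 of Odc1 and that of Asl, and probes of 1 gene are not separate events. The shares of genes given here count 1 probe for each gene, so they are not directly comparable with counts of probes. Of all 7570 genes tested 45.3% were also lowest there, so the count is read against an array that lay low. The median deviation of those genes was -0.08 on replicate 3, against 0.00, 0.02 and 0.05 on replicates 1, 2 and 4. With each array's median taken off, 5 of the 9 probes were lowest on replicate 3, as were 28.6% of all genes tested. The second Odc1 probe then stood at 0.03 there and the fourth Srm probe at -0.04, lowest on replicate 1. On the brightest probes, replicate 3 deviated from the probe's own mean by -0.35 for Asl, -0.29 for Srm and -0.18 for Odc1. Arg1 deviated by -0.13 and Sat1 by 0.05. With the array's median taken off, Asl stood at -0.27, Srm at -0.21, Odc1 at -0.11, Arg1 at -0.06 and Sat1 at 0.13. Quantile normalization left Asl at -0.23, Srm at -0.11 and Odc1 at -0.05, while with a normexp background correction Arg1 turned to 0.03.

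**Figure D3:**
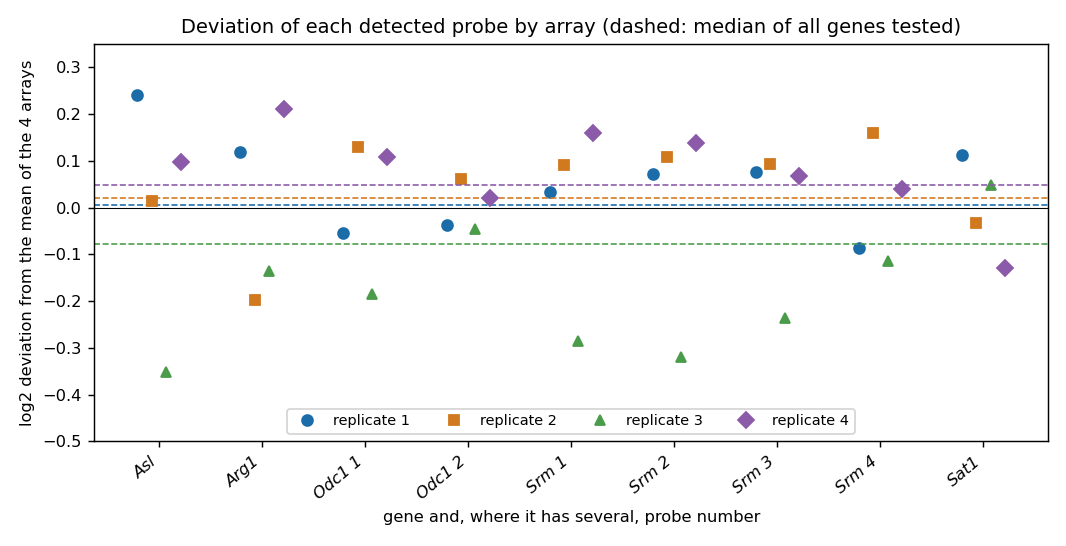
Deviation of the 9 detected probes from their mean over the 4 arrays, in log2 units, with dashed lines at the median of all genes tested on each array. Replicate 3 is the lowest point for Asl, both Odc1 probes and all 4 Srm probes, and lies -0.35 from the mean for Asl.

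None of the detected members was called more variable than its level predicts. The test was limma's trended, robust prior variance over the 7570 genes whose brightest probe was detected on all 4 arrays (9 further genes were detected there by another probe), at a Benjamini-Hochberg adjusted p under 0.05. It called 39 genes, or 0.515%, and 0 of the 5 members it could test, and 0 of them had an unadjusted p under 0.05. The lowest unadjusted p was that of Asl (0.084, adjusted p = 0.87 by limma's prior variance), whose SD of 0.25 stood against a prior SD of 0.16 at its level. Srm (unadjusted p = 0.278), Arg1 (0.270), Odc1 (0.482) and Sat1 (0.737) all had an adjusted p of 0.991 in that limma fit. With 4 arrays the precision is limited, and these p-values do not show stability. The median SD of the 5 members was 0.196, a fold of 1.15, beside 0.163 for all genes tested, a fold of 1.12. That order turned with quantile normalization (0.123 for the members, 0.147 for all genes) and where detected probes alone set the 75th percentile (0.144 and 0.151). Without replicate 3 the members' median fell to 0.114 and that of all genes to 0.136.

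**Figure D4:**
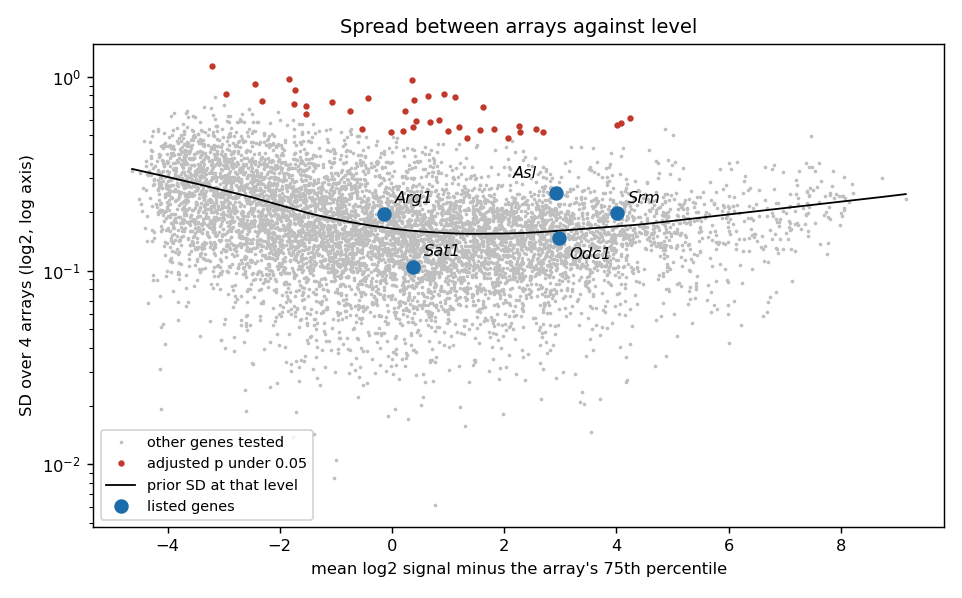
SD over the 4 arrays (log axis) against mean level for all genes tested. The black line is the prior SD and red points are the 39 genes called. Asl, Arg1 and Srm lie above the line and Odc1 and Sat1 below it, none among the red points.

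Genes around these routes were mostly present. Of 52 other pathway genes in 8 roles, 49 had a probe. Detection on all 4 arrays held for 33, beside 45.7% of all genes. By the lenient flag 39 were present on all 4 arrays, beside 55.3% of all genes. The genes added were Slc38a9, Azin2, Ddah1, Gucy1a1, Oaz3 and Smox. A gene given below as not detected is thus one not well above background, which does not prove absence. The genes were listed with earlier results of these data known, so the share is a description. Mtap, Paox and Slc18b1 had no probe matched by accession.

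Arginine transport was represented by 5 of 7 genes. Slc7a6 lay at -1.32 ± 0.27 and Slc7a7 at -0.79 ± 0.04 (SD, n = 4), light chains of exchangers for cationic and neutral amino acids. Slc25a15, the mitochondrial ornithine carrier, lay at -0.72 ± 0.27 and had the largest SD among genes of the role detected on all arrays. Slc7a3 and Slc38a9 were not well above background.

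The listed rest of the urea cycle was not well above background on any array. This held for Cps1 and Otc, which make citrulline in liver mitochondria, and Nags, which makes the activator of Cps1. Gatm and Azin2 were not detected on any array either. By the lenient flag Cps1 was present on 3 arrays and Azin2 on all 4. Of 7 genes listed for the urea cycle and other arginine use, 2 were detected on all 4 arrays. They were Gamt, the methyltransferase of creatine synthesis (2.68 ± 0.13, SD, n = 4), and Agmat, annotated as agmatinase (-2.92 ± 0.14, SD, n = 4).

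The route from ornithine and glutamate to proline was represented by 5 of 6 genes, without Prodh, which degrades proline. Oat, the aminotransferase that turns ornithine towards glutamate and proline, lay at 1.70 ± 0.07 (SD, n = 4). Aldh18a1, which makes the precursor of proline and ornithine from glutamate, was the only pathway gene called more variable (SD 0.52, n = 4, adjusted p = 0.0207 by limma's prior variance). It lay at 0.27, 1.38, 0.97 and 1.38 on replicates 1 to 4, so replicate 1 was the low one. Its other probe ran the opposite way, at -1.01, -1.25, -1.57 and -1.61, with replicate 1 highest. The 2 probes were printed at columns 40 and 15 of the array. The call thus rests on a probe that the second does not follow. It was lost in 9 of 15 alternatives, among them quantile normalization (adjusted p = 0.389), the mean over probes (0.989) and leaving out replicate 1 (0.981), 3 (0.0744) or 4 (0.120), by the same limma test.

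For nitric oxide, the other synthase genes Nos1 and Nos3 were not well above background, while 6 of 8 genes of the role were detected, all of them of the cofactor tetrahydrobiopterin. Gch1, the first enzyme of its synthesis, lay at 2.61, 2.88, 2.56 and 3.00 (2.76 ± 0.21, SD, n = 4). Gchfr, its feedback regulator, lay at 0.71 ± 0.11 (SD, n = 4). Of genes that control or sense nitric oxide 5 of 8 were detected. Ddah2, from a family that degrades methylated arginines, lay at -0.46 ± 0.22, the synthase-binding gene Nosip at 1.35 ± 0.12 and Nostrin at -3.98 ± 0.27. Ddah1 was detected on 2 arrays, and Gucy1a1 and Gucy1b1, the subunits of the soluble guanylate cyclase that senses nitric oxide, on none.

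The polyamine list was represented beyond its members. Amd1, the decarboxylase that supplies the aminopropyl groups, lay at 1.85, 1.41, 1.86 and 1.52 on replicates 1 to 4 (1.66 ± 0.23, SD, n = 4), with replicates 1 and 3 above the other pair. Sms, spermine synthase, lay at -0.95 ± 0.15, and Azin1, which frees ornithine decarboxylase from its antizymes, at -2.20 ± 0.30 (SD, n = 4), highest on replicate 3. With Oaz1 and Oaz2 these made 5 of 6 measured genes, and Oaz3 was not well above background. Of 4 measured genes of breakdown and transport, Atp13a2 (2.84 ± 0.16), a lysosomal polyamine exporter, and Atp13a3 (-1.87 ± 0.14) were detected on all arrays. Smox, spermine oxidase, was on 3 arrays and Sat2 on none. All 3 genes of hypusine formation, the use of spermidine to modify the translation factor Eif5a, were detected. Eif5a lay at 4.92 ± 0.18, Dhps at 0.18 ± 0.18 and Dohh at 5.49 ± 0.24 (SD, n = 4).

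**Figure D5:**
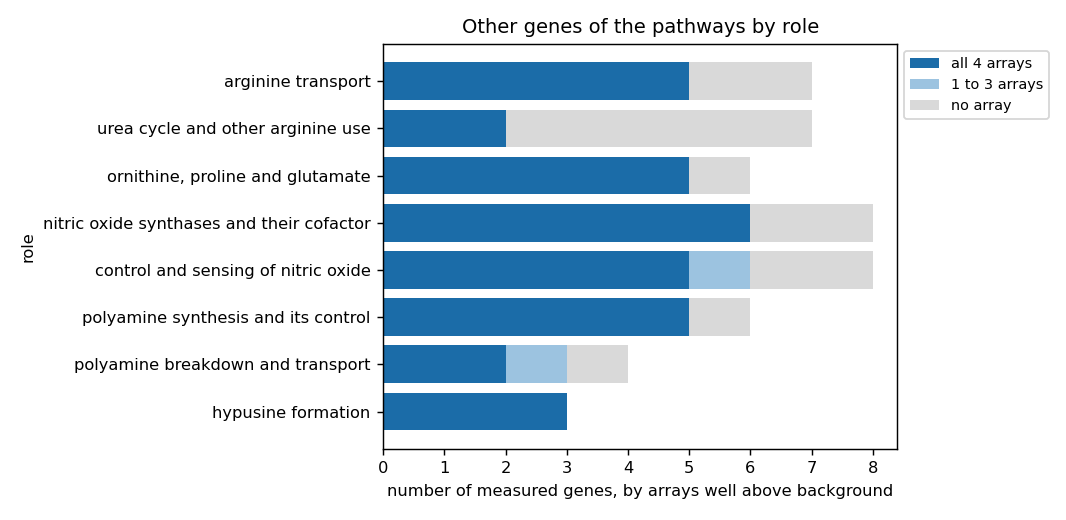
Number of measured genes of each role well above background on all 4 arrays, on 1 to 3 arrays or on none. The role of the urea cycle and other arginine use has 2 genes on all arrays (Gamt and Agmat) and 5 on none. All 3 genes of hypusine formation are on all arrays.

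Across the 33 detected pathway genes the median SD was 0.178 and 1 was called more variable, where 0.515% of all genes were.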

How the data were processed

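RNA of 4 exposed cultures was measured on 4 one-colour arrays of 1 slide, per the file headers. The authors used Agilent Feature Extraction 11.0.1.1, per the submitters' processing notes. Its deposited intensity values had the background taken off and a spatial trend removed, with no scaling across arrays, per the file headers. Median spot and background intensity and the 0 or 1 flags (a class of other values) were deposited in the same files. No column of other samples was present. Each array has 58717 non-control spots, of which 634 to 669 flagged as outlying were left out, with none of the 17 spots of the members among them.

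The log2 of each deposited signal was set against the 75th percentile of its array, taken over the remaining spots, and averaged over the spots of a probe. Of 45598 probes, 21109 were named through their accession by the RefSeq gene table of GRCr8. The grid is annotated on an older build, so no coordinates of probes are given, and those of the promoter windows are on GRCr8. The brightest probe represents a gene. Variances over the 4 arrays were tested in R 4.3.3 with limma 3.58.1 (prior degrees of freedom 24.3), a test checked on simulated data. In that check it called 16% of genes given 2 times the SD and 70% of those given 4 times. It thus missed most genes at 2 times the SD. Figures were drawn with matplotlib 3.10.9. The planned protein identities were not computed, as no protein table was used here.

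Named genes were all members, and of each pathway role the first 2 listed and the most variable of those detected on every array, with undetected ones by symbol, and 1 gene that the rule names is not reported here. Members, lists and tests were chosen with earlier results of these data known. The number of arrays limits the precision. Alternatives were other background corrections, scalings, probe summaries, flags, filters and priors, and each replicate left out. Leaving out spots at columns 1 to 72 was added after seeing the data.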

Additional observations from a re-analysis of the deposited data

Results flagged for a closer look

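In 5 of 30 probes and genes checked, the highest or lowest array was set off from the rest, its gap to the nearest array as a share of the whole range being above Dixon's 95% critical value for 4 samples. Chance flags about 1 in 20, and 5.46% of all 7570 genes tested passed that value. Those rates are not directly comparable with 5 of 30. The genes checked included the most variable detected gene of each pathway role, such as Slc25a15, and several probes of 1 gene. For the second Srm probe the ratio was 0.855 and for the third 0.922, in either case with replicate 3 low. Those probes share a transcript, so they are not separate events. The brightest Srm probe, which represents the gene, had a ratio of 0.717 and the fourth 0.437. Neither passed the critical value, although replicate 3 was lowest on either. Dhps, the deoxyhypusine synthase gene, had a ratio of 0.907, again with replicate 3 low, 0.27 below its mean (-0.27). Ddah2 had 0.892, with replicate 4 low at -0.79 against -0.31 to -0.36 elsewhere. Slc25a15 had 0.833, with replicate 1 high at -0.32 against -0.80 to -0.89. Its other 2 probes did not set replicate 1 apart. The second had -3.79 there and -3.81 on replicate 3, with replicate 4 lowest at -4.21. The third, detected on no array, had -7.17 on replicate 1, below -6.62 and -6.63 on replicates 2 and 4.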

How the results depend on the processing

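No alternative called a member more variable (0 in each). By limma's prior variance the lowest adjusted p was 0.764 over 58 values of the 5 detected members. Those values leave out the other filters on dim genes and the other priors, for which only the calls were counted. Without spots at columns 1 to 72 only 3 members could be tested, as Asl and Arg1 have no other probe. Detection was recomputed with flagged spots kept and with each replicate left out, which gave 5 members, and with the lenient flag, which gave 7. Other pathway genes detected numbered 33 or 34, and 39 with that flag. The members' median SD of 0.196 was 0.123 after quantile normalization and ran from 0.114 to 0.220 with a replicate left out, lowest without replicate 3. Without replicate 3 the SD of Asl fell from 0.252 to 0.114. Without replicate 4, Asl alone had an unadjusted p below 0.05 by limma (0.0442). With normexp the deviation of Arg1 on replicate 3, less the array's median, turned from -0.06 to 0.030, and that of Asl was -0.17. The 39 calls over all genes became 208 with normexp, 127 without a filter on dim genes, 9 with a prior that was not robust and 7 without spots at columns 1 to 72. They became 0 with quantile normalization, with the 75th percentile of detected probes as scale and with a prior without trend, where limma gave 450, 403 and 467 genes an unadjusted p below 0.05. Leaving out a replicate gave 10 to 77, with 77 without replicate 2, 10 without replicate 3 and 16 without replicate 4. The causes were not tested. Levels depend on the reference chosen. That of Arg1 ran from -1.86 to 0.42 and that of Srm from 2.28 to 4.57, so a level holds for its own scaling alone. Differences between arrays moved too, the SD of Srm from 0.197 to 0.089 with quantile normalization. The call of Aldh18a1 was lost in 9 of 15 alternatives (adjusted p 6.08e-05 to 0.989 by limma), and its probes were not kept without columns 1 to 72. No paired analysis was possible because there is 1 group, and the slide as a block was not run, since all arrays lie on 1 slide.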

Other observations

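Probes of 1 gene could order the arrays differently. The 3 Sms probes were all detected on all 4 arrays. The first, printed at column 69, was lowest on replicate 1 (-0.13 from its mean) and highest on replicate 3 (0.19). The second, at column 33, was highest on replicate 1 (0.41), and so was the third, at column 86 (0.22). Of the 3 Smox probes 1 reached detection, with 20.2, 23.3, 36.8 and 17.0 intensity units on replicates 1 to 4, while the others stayed between 3.50 and 14.9 units. Of the Ddah1 probes 1 was detected, on replicates 1 and 4 (20.8 and 26.1 units), and the other gave 2.96 to 7.51 units.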
